A study of Mus musculus with 12 samples.

Results

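Crystallins are the abundant soluble proteins of the eye lens, and several of their genes are also transcribed in the retina. The 9 crystallin genes followed here were Cryaa, Cryab, Cryba1, Cryba2, Cryba4, Crybb1, Crybb2, Crybb3 and Crygs, found by symbol among the 25124 genes listed for bulk mRNA sequencing of whole mouse retinas. All 9 were listed in both expression tables of the series, on the same transcript, and all 9 passed the filter on low values in both. They were chosen by their FPKM values and differences in these same comparisons, so the values below describe them and are not tests of them.

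The retinas came from wild-type C57BL/6J mice, and every group held 2 libraries. In the single-elevation experiment one eye of 3-month-old or 18-month-old animals was raised to an intraocular pressure (IOP) of 30 mmHg for 1 h (3mo IOP and 18mo IOP), the untreated contralateral eye was the control (3mo control and 18mo control), and retinas were collected on day 2. In the repeated experiment the same elevation was given 4 times, every other week, to mice that were 3 months old at the first one (4xIOP), again with the contralateral eye as control (4xIOP control) and collection on day 2 after the last. The labels do not say which libraries came from which animal, so errors measure the spread between libraries only. Each control is thus the untreated eye of an animal whose other eye was treated.

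The family has 2 unrelated branches. The α-crystallins, Cryaa (αA) and Cryab (αB), are small heat shock proteins, chaperones that hold misfolding proteins in solution. Of these, αB is made in many tissues, including glia, and αA is the more lens-restricted form. The β- and γ-crystallins share a Greek-key fold and serve as structural proteins of lens fibres. Acidic β-crystallins (Cryba1, Cryba2, Cryba4) pair with basic ones (Crybb1, Crybb2, Crybb3) in oligomers, while γS (Crygs) stays a monomer. Crystallin transcripts in the retina are known to rise after injury or light damage in some settings, in neurons and in Müller glia. In lens, their promoters are driven by factors such as Maf, Pax6, Sox and Prox1, with Maf binding at half-sites of the type searched here, and heat shock factors act on small heat shock genes.

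Several members lie close to each other. Crybb1 (chr5:112255820-112269585) and Cryba4 (chr5:112246492-112252518) stand head to head with 3301 bases between them. Crybb2 (chr5:113058258-113070117) and Crybb3 (chr5:113075839-113081584) follow each other on the same strand with a gap of 5721 bases. Cryab (chr9:50752971-50756635) stands head to head with Hspb2, another small heat shock gene, at 616 bases. The others were at chr17:31677931-31681730 for Cryaa, chr11:77718614-77725293 for Cryba1, chr1:74889934-74893143 for Cryba2 and chr16:22805203-22811410 for Crygs. These are the whole-gene spans of the files in mm10, exons and introns together. The transcripts were short, from 652 bases for Cryba1 to 1122 bases for Cryaa. No exact run longer than 22 bases was shared between transcripts of any pair of members in the GENCODE annotation.

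Promoters were available from RefSeq (GRCm38.p6) for 8 of the 9 genes, all except Cryab. The letters TATAAA, the TATA box core, occurred on either strand in the 300-base windows (250 bases before the start to 50 after) of 4 of the 8 members and in 13.6% of all 32851 promoters. The Maf half-site TGCTGA occurred in 7 of 8 members and in 19.5% of all promoters, and the heat shock element core TTCNNGAA in 1 member, Cryba1, and in 8.52% of all promoters. No 2 of these motifs overlapped in the printed stretches. The 120 bases before the start are given for 5 members as examples, namely Cryaa, Crybb2 as the β-member with the highest level in most libraries, and the 3 members with TATAAA close before the start, read 5′ to 3′ on the strand of the gene. Capitals mark TATAAA and TGCTGA, and Crybb2 holds neither.
Cryaa, chr17:31677811-31677930, plus strand: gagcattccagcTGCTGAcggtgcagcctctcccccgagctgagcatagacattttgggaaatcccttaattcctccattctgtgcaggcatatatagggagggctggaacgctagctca
Cryba1, chr11:77725294-77725413, minus strand: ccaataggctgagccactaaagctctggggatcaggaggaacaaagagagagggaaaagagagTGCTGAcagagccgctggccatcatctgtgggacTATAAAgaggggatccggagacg
Crybb1, chr5:112255700-112255819, plus strand: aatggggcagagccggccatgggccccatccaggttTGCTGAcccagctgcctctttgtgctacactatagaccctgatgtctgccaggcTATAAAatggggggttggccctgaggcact
Crybb2, chr5:113070118-113070237, minus strand: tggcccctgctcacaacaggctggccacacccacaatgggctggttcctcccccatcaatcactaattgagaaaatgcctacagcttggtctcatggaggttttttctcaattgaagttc
Crygs, chr16:22811411-22811530, minus strand: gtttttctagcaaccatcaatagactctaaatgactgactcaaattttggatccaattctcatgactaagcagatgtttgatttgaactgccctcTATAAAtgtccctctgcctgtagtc
In Cryba1 the half-site lay at -57 to -52 and the TATA letters at -23 to -18, in Crybb1 at -84 to -79 and -30 to -25, and in Crygs the TATA letters lay at -25 to -20, counted from the start. TATAAA on the gene's strand with its first base between -40 and -20 was found in 3 of 8 members (Cryba1, Crybb1 and Crygs) and in 1.99% of all promoters. A match of letters describes the sequence and does not show that a factor bound it.

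Expression was given as FPKM, read counts scaled to the length of the transcript and to the mapped reads of the library, and was compared on the log2(FPKM + 0.5) scale, which understates the change of low genes. Libraries held 39766240 to 59455022 mapped reads, of which 44.2 to 71.5% were counted in exons, so that 3 reads on a 900-base transcript amounted to 0.0561 to 0.0838 FPKM. The lower exon shares, 44.2 to 53.7%, all belonged to the repeated experiment, whose table was made separately, and its levels stand beside those of the single experiment only as values. 3mo control replicate 2 carried more RNA of corneal and conjunctival markers than any other library, a summed level of 81.1 FPKM over 9 genes against 0.112 to 16.3 FPKM in the other single-experiment libraries. In whole tissue, fewer cells of a type and less RNA per cell cannot be told apart.

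After repeated IOP elevation all 9 crystallins stood above their contralateral controls without overlap. The differences of group means on the log2(FPKM + 0.5) scale ran from 1.48 ± 0.26 (SE) for Crybb1 to 4.45 ± 0.47 for Cryba1, with a median of 3.07 against 0.10 for all 13718 genes tested. A gene was called at a limma adjusted p of at most 0.05 over all genes and a log2 difference of at least 1. All 9 members were called higher, where 5.45% of all tested genes were called higher and 27.7% stood higher without overlap, but since the members were picked with this comparison known, nothing is read from that count. Moreover, 6 of the 9 (Cryba1, Cryba2, Cryba4, Crybb1, Crybb3 and Crygs) averaged under 0.5 FPKM in the controls and passed the filter on low values, a mean of 0.5 FPKM over the 4 libraries, only through the 4xIOP libraries. Their summed level was 15.1 and 11.1 FPKM in the control libraries and 82.2 and 171 FPKM after 4xIOP. Without Cryab, the sum was 5.34 and 1.28 FPKM in controls against 58.8 and 125 FPKM.

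**Figure D1:**
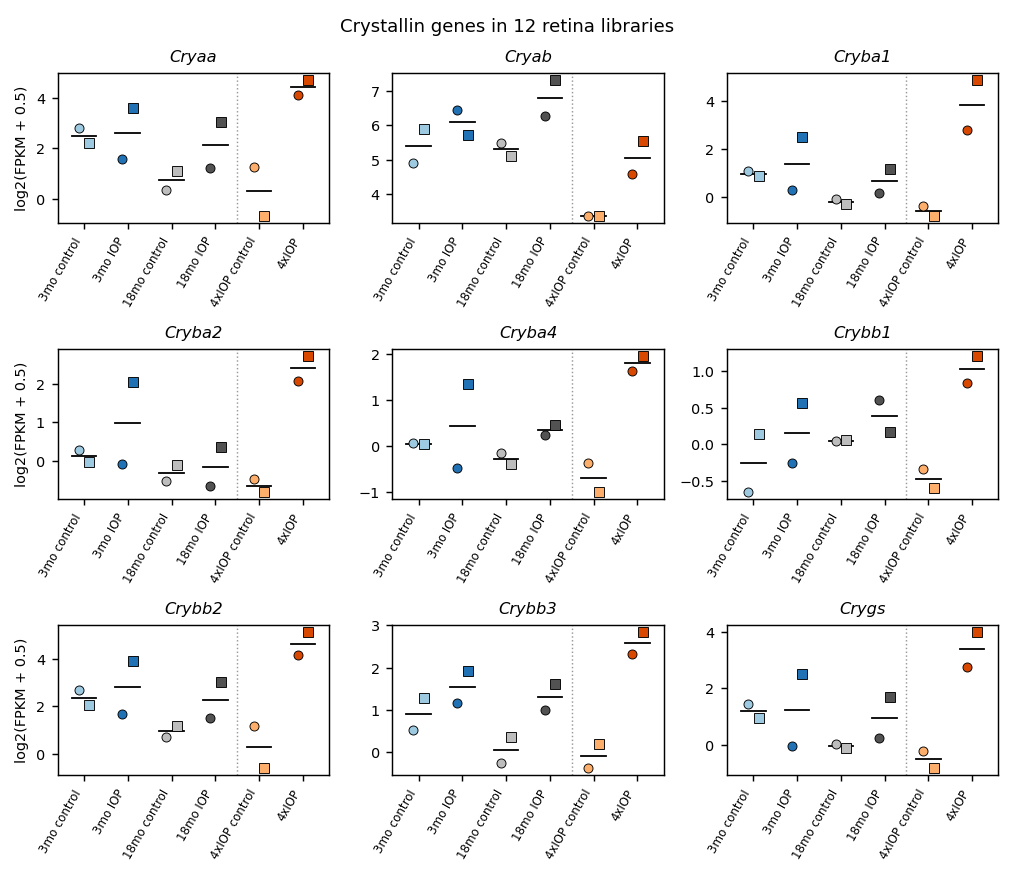
Each panel plots 1 crystallin on the log2(FPKM + 0.5) scale in 12 libraries, with circles for replicate 1, squares for replicate 2 and a bar at the group mean of 2, and a dotted line between the separately made tables. In every panel both 4xIOP libraries lie above both 4xIOP control libraries, and for every gene except Cryab the 3mo IOP pair spans the 3mo control pair or reaches above it through replicate 2.

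Among the α-crystallins, Cryaa was at 1.91 and 0.126 FPKM in the 4xIOP controls, that is 85 and 6 reads, and at 16.7 and 26.0 FPKM after 4xIOP. The means were 1.02 ± 1.26 and 21.4 ± 6.53 FPKM (SD, n = 2), a log2 difference of 4.12 ± 0.45 (SE). The control libraries differed from each other by more than the treated ones did on the log scale, and both lay far below them. In the single experiment Cryaa read 6.48 and 4.09 FPKM in the 3mo control libraries, 2.49 and 11.7 in 3mo IOP, 0.773 and 1.66 in 18mo control and 1.83 and 7.81 in 18mo IOP. The 3mo IOP libraries lay on either side of their controls, and both 18mo IOP libraries lay above theirs, replicate 1 by little.

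Cryab, the αB chaperone, had the highest level of the 9 in each of the 12 libraries. It was at 9.80 and 9.78 FPKM in the 4xIOP controls, the closest pair of replicates of any member there, and at 23.4 and 45.8 FPKM after 4xIOP. The log2 difference was 1.69 ± 0.30 (SE), the second smallest of the family after Crybb1 at 1.48. By ratio of mean FPKM the change of Cryab was the smallest, at 3.53 against 6.79 for Crybb1. The log2 scale used here understates the change of low genes such as Crybb1. Both treated libraries of Cryab stood clear of the controls. In the single experiment it was at 29.4 and 59.0 FPKM in the 3mo control libraries, 87.4 and 51.8 in 3mo IOP, 44.3 and 34.1 in 18mo control and 76.9 and 161 in 18mo IOP. Both 18mo IOP libraries exceeded both 18mo controls, while the 3-month pairs overlapped. The order of its group means was 18mo IOP (119 ± 59.6), 3mo IOP (69.6 ± 25.1), 3mo control (44.2 ± 20.9) and 18mo control (39.2 ± 7.25 FPKM, SD, n = 2), and each neighbouring pair in that order overlapped in its library values.

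The acidic β-crystallins were near or under 1 FPKM in untreated eyes. Cryba1 (βA3/A1) was at 0.270 and 0.0720 FPKM in the 4xIOP controls, 7 and 2 reads, and at 6.45 and 29.8 FPKM after 4xIOP, 236 and 822 reads. It had the largest difference of the family on the log2(FPKM + 0.5) scale, 4.45 ± 0.47 (SE), within the error of Crybb2 at 4.37 ± 0.45. The gap between its 4xIOP libraries was the widest of the family. Its single-experiment levels were 1.59 and 1.32 FPKM in the 3mo control libraries, 0.706 and 5.12 in 3mo IOP, 0.420 and 0.295 in 18mo control and 0.614 and 1.75 in 18mo IOP. The 18mo controls were below all other single-experiment libraries for this gene.

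Cryba2 (βA2) was at 0.212 and 0.0660 FPKM in the 4xIOP controls and 3.72 and 6.24 FPKM after 4xIOP, a log2 difference of 3.07 ± 0.26 (SE). In the single experiment it read 0.709 and 0.470 FPKM in the 3mo control libraries, 0.439 and 3.67 in 3mo IOP, 0.192 and 0.420 in 18mo control and 0.128 and 0.778 in 18mo IOP. It was the 1 member whose 18mo IOP libraries overlapped their controls. Cryba4 (βA4) was at 0.268 and 0 FPKM in the 4xIOP controls, 8 and 0 reads, and at 2.63 and 3.43 FPKM after 4xIOP, 109 to 111 reads, a log2 difference of 2.50 ± 0.26 (SE). The control library with no read allows up to 3 reads by counting error alone. Its single-experiment levels were 0.544 and 0.529 FPKM in the 3mo control libraries, 0.220 and 2.04 in 3mo IOP, 0.394 and 0.256 in 18mo control and 0.678 and 0.872 in 18mo IOP.

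Of the basic β-crystallins, Crybb2 (βB2) was the most abundant β- or γ-member in 11 of 12 libraries. It was at 1.77 and 0.158 FPKM in the 4xIOP controls, 63 and 6 reads, and at 17.3 and 35.3 FPKM after 4xIOP, a log2 difference of 4.37 ± 0.45 (SE). In the single experiment it was at 6.01 and 3.62 FPKM in the 3mo control libraries, 2.71 and 14.7 in 3mo IOP, 1.14 and 1.74 in 18mo control and 2.33 and 7.74 in 18mo IOP. Its ups and downs over libraries were those of Cryaa, down to the low 4xIOP control replicate 2.

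Crybb1 (βB1) was at 0.291 and 0.164 FPKM in the 4xIOP controls and 1.28 and 1.81 FPKM after 4xIOP, 62 to 66 reads. The difference on the log2(FPKM + 0.5) scale, 1.48 ± 0.26 (SE), was the smallest of the family. By ratio of mean FPKM it was not, at 6.79 against 3.53 for Cryab. In the single experiment Crybb1 was at 0.140 and 0.607 FPKM in the 3mo control libraries, 0.341 and 0.973 in 3mo IOP, 0.529 and 0.545 in 18mo control and 1.01 and 0.624 in 18mo IOP. This was the 1 member with a higher mean at 18 than at 3 months in control eyes, with overlapping libraries. Crybb3 (βB3) was at 0.268 and 0.630 FPKM in the 4xIOP controls and 4.46 and 6.72 FPKM after 4xIOP, a log2 difference of 2.68 ± 0.25 (SE). It read 0.931 and 1.93 FPKM in the 3mo control libraries, 1.72 and 3.26 in 3mo IOP, 0.335 and 0.769 in 18mo control and 1.48 and 2.56 in 18mo IOP. Replicate 2 was the higher library in each of these groups and in the repeated ones.

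Crygs (γS) was at 0.358 and 0.0670 FPKM in the 4xIOP controls, 10 and 2 reads, and at 6.26 and 15.6 FPKM after 4xIOP, 247 and 465 reads. The log2 difference was 3.90 ± 0.34 (SE). In the single experiment it was at 2.19 and 1.43 FPKM in the 3mo control libraries, 0.471 and 5.26 in 3mo IOP, 0.519 and 0.426 in 18mo control and 0.673 and 2.73 in 18mo IOP. Both 18mo IOP libraries were above their controls and 1 of the 3mo IOP libraries was below both of its own.

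Most crystallins had lower mean levels in the older control retinas. In 18mo control, 8 of 9 members had a lower mean than in 3mo control and 7 were lower without overlap, where 32.8% of all 13731 tested genes were lower without overlap. Among the 7, Cryba1, Cryba2, Cryba4 and Crygs averaged 0.306 to 0.473 FPKM in 18mo control, at 6 to 16 reads. The log2 differences ran from -1.77 ± 0.74 (SE) for Cryaa, 5.28 against 1.22 FPKM, to 0.30 ± 0.36 for Crybb1, with a median of -0.86 against 0.16 for all genes. Crybb2 was at -1.43 ± 0.72, Crygs at -1.23 ± 0.77 and Cryba1 at -1.19 ± 0.64, while Cryab, at -0.10 ± 0.45, was level with its 3-month value within its error. No member was called, where 23.2% of all genes were. The tilt of the libraries toward short transcripts moved with age in the same samples: the median FPKM of genes under 1000 bases was 3.03 and 9.12 times that of genes of 4000 bases or more in the 3mo control libraries, and 1.59 and 1.52 times in 18mo control. Once the trend over transcript length was removed from each library, the median crystallin difference was 0.034, and 1 member, Crybb1, was called higher, where 16.4% of all genes were called in either direction. Other settings went the other way. A fit on the 2 groups alone called 4 members lower (Cryaa, Cryba1, Crybb2 and Crygs), where it called 21.9% of all genes. A replicate block called 1 lower, Cryaa, where it called 22.8%. Markers of other cells moved in the same comparison. All 10 tested pigment epithelium genes were called lower in limma, with summed levels of 3.51 to 13.3 FPKM in 18mo control against 221 to 234 FPKM in 3mo control, and 5 of the 10 averaged under 0.5 FPKM in 18mo control. Of the ganglion cell genes 7 of 11 were called lower and 0 higher, of the corneal genes 4 of 6 lower and 0 higher, of the ciliary body and iris genes 3 of 7 lower and 0 higher, of the Müller glia genes 5 of 12 higher and 0 lower, of the rod genes 2 of 12 lower and 0 higher, and of the blood genes 1 of 7 higher and 0 lower. All 3 ciliary body and iris calls, 2 corneal calls and the blood call were on genes averaging under 0.5 FPKM in 1 group. The part of these marker genes in the crystallin difference was not tested.

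A single elevation at 3 months did not separate the crystallins from their controls. All 9 means were higher in 3mo IOP, by a median of 0.42 on the log2(FPKM + 0.5) scale against 0.13 for all genes, but every member overlapped, where 28.6% of all genes were higher without overlap. No member was called, where 0.575% of all genes were. For 6 members (Cryaa, Cryba1, Cryba2, Cryba4, Crybb2 and Crygs) replicate 1 lay below both controls and replicate 2 above both. The median difference was 1.29 without 3mo IOP replicate 1 and -0.53 without replicate 2, so its direction was set by 1 library. The largest log2 difference was 0.87 ± 0.64 (SE), for Cryba2. Of the ciliary body and iris genes 6 of 7 were higher without overlap in 3mo IOP, with 0 called in limma and summed levels of 100.2 to 220.9 FPKM against 21.3 to 33.3. Most of the 3mo IOP sums was Gpnmb, at 128 and 50.8 FPKM, and Tyrp1, also on the pigment epithelium list, at 73.8 and 32.2 FPKM. Of the pigment epithelium genes 5 of 10 were higher without overlap with 1 called. The other 5 had a lower mean on the log2(FPKM + 0.5) scale, 0 of them without overlap. Dct was at 195 and 99.4 FPKM against 34.6 and 8.08, and Rpe65 at 20.5 and 5.59 FPKM against 17.6 and 18.2. The list summed to 314 to 725 FPKM against 221 to 234. Müller glia genes were higher without overlap in 5 of 12 and lower in 1, with 1 called, and rod genes lower without overlap in 5 of 12 with 0 called, where 3.95% of all genes were lower without overlap. All 6 tested corneal genes had lower means, 1 of them without overlap, and 0 were called. Blood genes overlapped, and ganglion cell genes were higher without overlap in 2 of 11, with 0 called of either. Their part in the crystallin values was not tested.

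At 18 months the same elevation was followed by higher crystallin levels in both libraries for 8 of 9 members. Here 36.5% of all genes were higher without overlap. Of the members, 4 (Cryba1, Cryba2, Cryba4 and Crygs) averaged under 0.5 FPKM in 18mo control. The log2 differences were 1.51 ± 0.45 (SE) for Cryab, 1.41 ± 0.74 for Cryaa, 1.33 ± 0.72 for Crybb2, 1.26 ± 0.39 for Crybb3 and 1.00 ± 0.77 for Crygs, and 0.17 to 0.89 for the other 4, with a median of 1.00 against 0.09 for all genes. No member was called, where 0.124% of all genes were. The median was 1.57 without 18mo IOP replicate 1 and 0.52 without replicate 2. The summed level of the 9 was 48.6 and 40.2 FPKM in 18mo control and 85.7 and 186 FPKM in 18mo IOP, most of it Cryab. Marker genes of other cells differed beside it: all 7 tested blood genes were lower in both 18mo IOP libraries, with summed levels of 66.5 to 82.4 FPKM against 243 to 653 FPKM in 18mo control and 0 called in limma. Of the 12 Müller glia genes 10 were higher without overlap with 1 called, summing to 4482 to 4945 FPKM against 2268 to 2660 FPKM, and of the 12 rod genes 7 were lower without overlap with 0 called, where 9.89% of all genes were lower without overlap. Pigment epithelium genes had a lower mean in 9 of 10, 2 of them without overlap, corneal genes were lower without overlap in 2 of 6, and 1 gene each of the ciliary body and iris and the ganglion cell lists was higher without overlap, with 0 called in any. In at least 1 of the groups, 7 of the 10 pigment epithelium genes and all 6 corneal genes averaged under 0.5 FPKM. Their part in the crystallin values was not tested.

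Between the treated eyes of the 2 ages, every member overlapped, where 43.2% of all genes were higher and 34.5% lower without overlap. The log2 differences of 18mo IOP from 3mo IOP ran from -1.14 ± 0.64 (SE) for Cryba2 to 0.72 ± 0.45 for Cryab, with a median of -0.28. Its direction was set by single libraries: the median was -1.48 without 3mo IOP replicate 1, 0.56 without 3mo IOP replicate 2, 0.081 without 18mo IOP replicate 1 and -1.01 without 18mo IOP replicate 2. No member was called, where 21.8% of all genes were. With the length trend removed the median was 0.71 and 2 members, Cryab and Crybb1, were called higher, where 14.9% of all genes were called in either direction. A test of whether the response to elevation differed between the ages called 0 of 13731 genes in limma, with 218 at an unadjusted p under 0.05, and 0 with voom on recovered reads, which also called no member in the 4 single-experiment comparisons. These comparisons share libraries: each of the 4 groups enters 2 of them. Between the treated eyes all 10 tested pigment epithelium genes were called lower at 18 months in limma, with summed levels of 2.64 to 5.56 FPKM against 314 to 725 FPKM, and 7 of the 10 averaged under 0.5 FPKM at 18 months. Of the ganglion cell genes 9 of 11 were called lower and 0 higher, of the ciliary body and iris genes 4 of 7 lower and 0 higher, of the Müller glia genes 8 of 12 higher and 0 lower, and of the rod genes 2 of 12 lower and 0 higher. All 6 tested corneal genes were lower without overlap with 0 called, and blood genes overlapped. All 6 corneal genes averaged under 0.5 FPKM at 18 months. So did 3 of the ciliary body and iris genes called and 1 of the ganglion cell genes called. The part of these marker genes in the crystallin values was not tested.

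**Figure D2:**
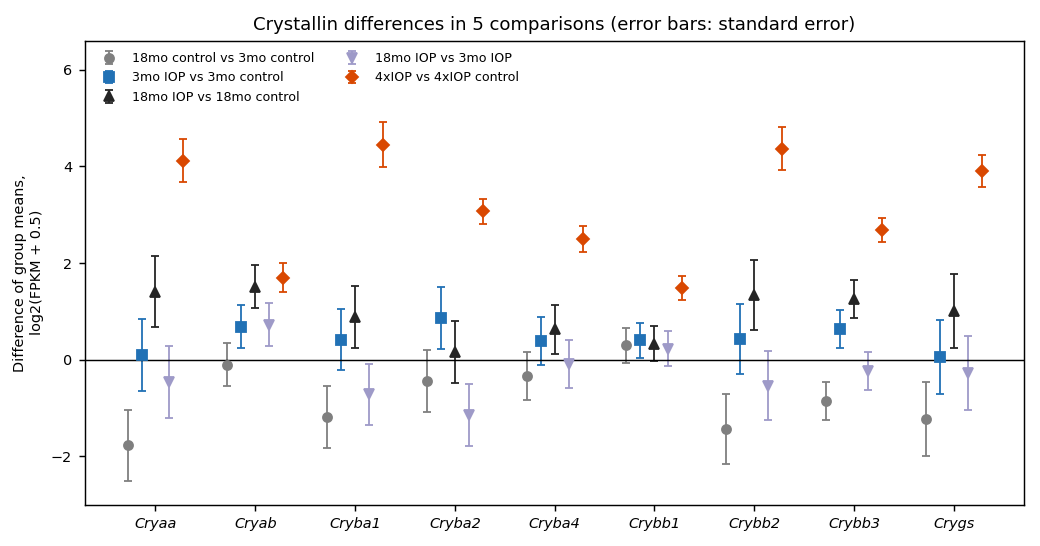
Differences of group means on the log2(FPKM + 0.5) scale are plotted for 9 crystallins in 5 comparisons, with error bars of 1 standard error from the limma fit. The 4xIOP diamonds run from 1.48 (Crybb1) to 4.45 (Cryba1) and are the highest point for every gene, though close to the 18mo IOP point (1.51 against 1.69) for Cryab.

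Cryab had the lowest correlations with the other members, and Crybb1 the next lowest. Across the 12 libraries, with each table centred on its own mean, the 28 pairs among the 8 members other than Cryab had Pearson r from 0.67 to 0.99 on the log2(FPKM + 0.5) scale (median 0.92), the highest for Cryaa with Crybb2. The 8 pairs with Cryab had r from 0.51 to 0.77 (median 0.61). Over the 8 libraries of the single experiment alone the first set ran from 0.04 to 0.98 (median 0.81) and the pairs with Cryab from -0.03 to 0.59 (median 0.19). There the 8 pairs of Crybb1 had a median r of 0.22, close to that of Cryab, and the 0.04 is its pair with Cryaa. The medians of the other 7 members ran from 0.68 to 0.90. These describe libraries that share depth, dissection and treatment.

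**Figure D3:**
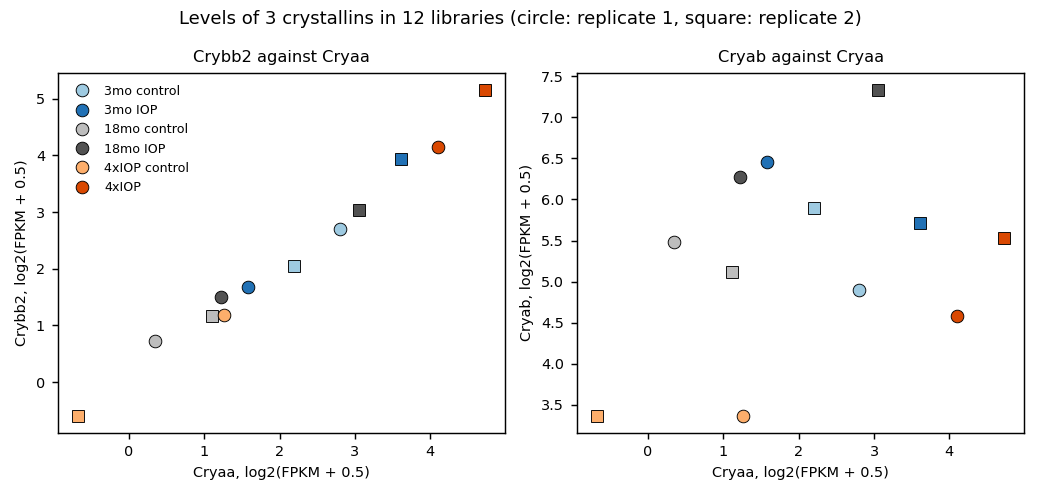
The left panel sets Crybb2 and the right panel Cryab against Cryaa in the 12 libraries, each axis on the log2(FPKM + 0.5) scale, with colour for the group and circles and squares for replicates 1 and 2. Crybb2 follows Cryaa through all groups, while Cryab is highest in 18mo IOP replicate 2 (161 FPKM) and lowest in the 4xIOP controls (9.80 and 9.78 FPKM).

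The share of Cryab in the summed crystallin level was lowest after 4xIOP. It was 61.3 to 91.1% in the 7 single-experiment libraries other than 3mo IOP replicate 2, at 52.6%, and 64.7 and 88.4% in the 4xIOP controls. After 4xIOP it was 28.5 and 26.8%. The ratio of Cryab to Cryaa was 1.40 and 1.76 after 4xIOP, 5.15 and 77.6 in its controls, and 4.42 to 57.3 in the single experiment.

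Within the β/γ-branch, Crybb2 was the largest part in 11 of 12 libraries. The 7 β- and γ-members summed to 3.43 and 1.16 FPKM in the 4xIOP controls, only 112 and 38 reads, and to 42.1 and 99.0 FPKM after 4xIOP. Crybb2 made 32.4 to 51.4% of that sum in every library except 4xIOP control replicate 2, where 38 reads were shared over the 7 genes and Crybb3 led with 54.5%. The share of Cryba1 was 15.3 and 30.1% after 4xIOP and 6.22 to 14.6% elsewhere. The share of Crybb1 was 1.83 and 3.04% after 4xIOP and 1.16 to 15.0% elsewhere, with no group apart from all others.

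**Figure D4:**
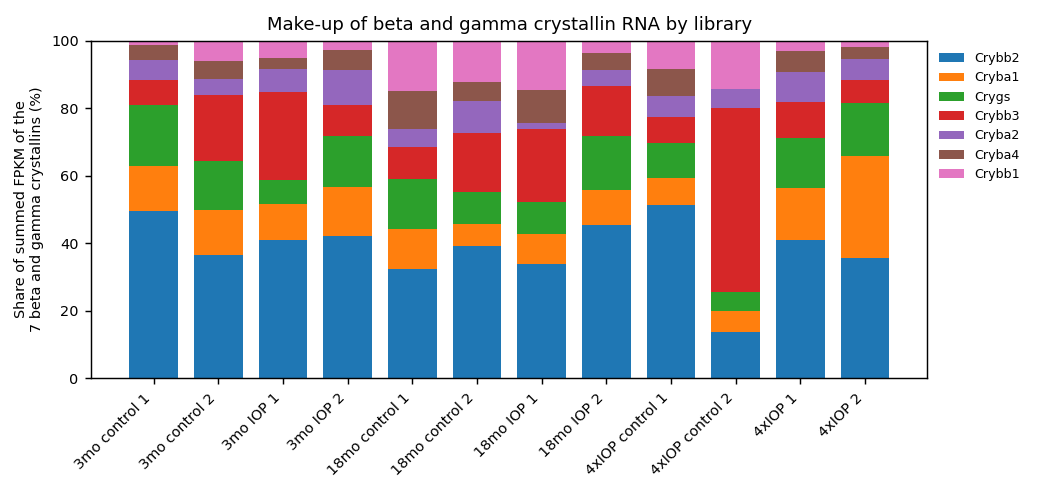
Stacked bars give the share (%) of each of 7 β- and γ-crystallins in their summed FPKM for the 12 libraries, replicates 1 and 2 of each group side by side. Crybb2 is the largest part in 11 libraries, from 32.4 to 51.4%, and 4xIOP control replicate 2, with 38 reads in all, is the exception.

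Crystallin genes outside the 9 were followed as a list. Of 12 named β/γ-family genes 10 were listed. Another 3 γ-crystallins, lens fibre proteins that are silent in most tissues, stood higher after 4xIOP without overlap. They passed the filter only through the 4xIOP libraries, so a test could find them only higher and their values are a description. Crygb was at 0.240 and 0 FPKM in the 4xIOP controls and 5.25 and 1.47 after 4xIOP, Crygc at 0.162 and 0 against 4.96 and 2.51, and Crygd at 0 and 0 against 3.67 and 2.14. They had no read or at most 4 in every single-experiment library except 3mo IOP replicate 2, at 2.90, 1.43 and 1.41 FPKM, which was also the 3-month library highest in β/γ-members. Transcripts of Crygb and Crygc share an exact run of 221 bases, so the split between these paralogs is uncertain, while no member shares more than 14 bases with any γA to γF transcript. Cryge and Crygf had at most 1 read in any library. Crybg3, a non-lens relative, was higher at 18 months in control eyes (log2 difference 1.36 ± 0.20, adjusted p = 0.00519) and did not pass the test after 4xIOP (0.33, adjusted p = 0.524).

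Of the 5 listed enzymes related to crystallins of other species, 2 were called higher after 4xIOP and 0 lower. Crym, which binds thyroid hormone, was at 18.1 and 19.4 FPKM in the 4xIOP controls and 113 and 186 FPKM after 4xIOP (log2 difference 2.92 ± 0.31 SE, limma adjusted p = 4.00e-05). It stood above its controls in both single-elevation groups without overlap, by 1.73 ± 0.48 at 3 months (adjusted p = 0.225) and 2.15 ± 0.48 at 18 months (adjusted p = 0.139), neither past the test. Cryzl2, a quinone oxidoreductase relative, went from 0.683 and 0.890 to 7.001 and 7.62 FPKM after 4xIOP (2.61 ± 0.20, adjusted p = 2.31e-06). Cryzl1 was lower at 18 months in control eyes (-1.15 ± 0.20, adjusted p = 0.00663).

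Lens fibre genes were a second list. Of 13 genes, 5 passed the filter on low values in the repeated experiment, 3 of them (Mip, Lgsn and Bfsp2) only through the 4xIOP libraries, so that these could be found only higher and are described without a test. Mip, the lens water channel aquaporin 0, had 0 reads in both controls and 54 and 169 reads after 4xIOP, at 0.444 and 1.85 FPKM. Lgsn, the lens glutamine synthetase-like gene lengsin, was at 0.133 and 0.0870 FPKM in the controls and 1.18 and 0.624 after 4xIOP, and Bfsp2, a beaded filament protein, at 0.149 and 0.196 against 0.695 and 1.15 FPKM. All 3 were higher without overlap.

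Other lens fibre genes were too low to test after 4xIOP, and several were higher there without overlap. Bfsp1, the partner of Bfsp2 in the beaded filament, was at 0.277 and 0.10 FPKM in the controls and 0.528 and 0.501 after 4xIOP. Grifin, a lens galectin relative, was at 0 and 0.222 FPKM against 0.803 and 0.623, and Lctl at 0 and 0 against 0.0990 and 0.154 FPKM. Lim2, a lens membrane protein, was at 0 and 0.0550 FPKM in the 4xIOP controls and 0.124 and 0.848 after 4xIOP. Gja3, a lens connexin, was at or under 0.0410 FPKM in all 12 libraries, Dnase2b was at 0 in the 4 repeated libraries, and Birc7 had 10 reads in 4xIOP replicate 1 and none in replicate 2. Tdrd7 and Lenep, which dominate the summed level of the list, did not pass the test (log2 differences -0.29 and 0.00). The other 11 genes summed to 0.566 and 0.667 FPKM in the 4xIOP controls and 4.05 and 5.81 FPKM after 4xIOP. In the single experiment the same sum was 2.09 and 2.86 FPKM in the 3mo control libraries, 8.67 and 4.13 in 3mo IOP, 0.628 and 0.741 in 18mo control and 1.40 and 1.97 in 18mo IOP. In 3mo IOP replicate 1 the sum was mostly Bfsp2, at 7.08 FPKM. Without Bfsp2 the sum was 0.896 and 1.37 FPKM in the 3mo control libraries, 1.59 and 1.88 in 3mo IOP, 0.304 and 0.387 in 18mo control and 0.715 and 1.59 in 18mo IOP. Lenep went the other way with age: it was called higher in 18mo control, at 9.62 and 9.65 FPKM against 4.97 and 3.31 in 3mo control (log2 difference 1.15 ± 0.20 SE, limma adjusted p = 0.00631). Tdrd7 overlapped between the ages, and all 13 genes together summed to 68.3 to 80.4 FPKM in 18mo control and 67.7 to 80.6 FPKM in 3mo control. The part of lens-derived RNA in the crystallin values was not tested.

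**Figure D5:**
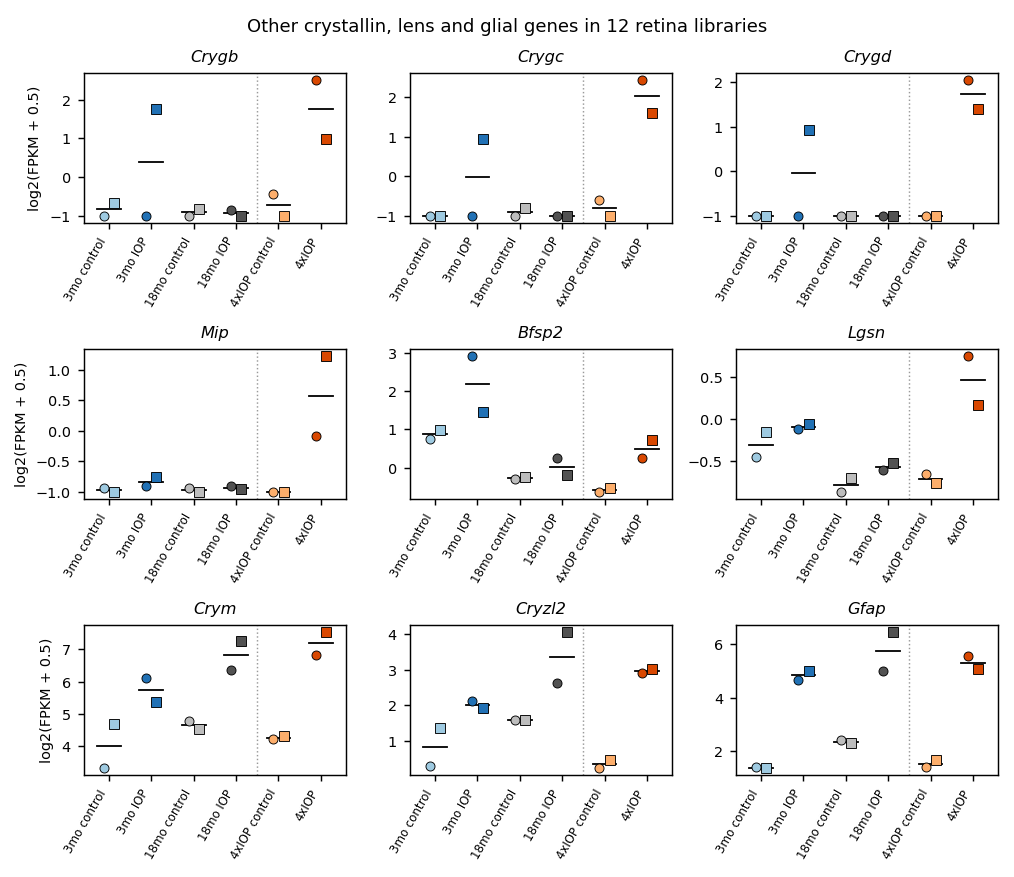
Panels show 9 genes outside the family members on the log2(FPKM + 0.5) scale in 12 libraries, with circles for replicate 1, squares for replicate 2 and bars at the means of 2. Crygb, Crygc, Crygd and Mip are near the floor of the scale except in the 4xIOP libraries (and, for the γ-crystallins, 3mo IOP replicate 2), while Gfap and Crym stand above their controls in all IOP groups.

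The transcription factors of the lens list gave 0 calls after 4xIOP in limma and 0 with voom, with 1 at an unadjusted p under 0.05. Among the 9 tested, 2 were higher and 2 lower without overlap, where 27.7% and 12.7% of all genes were. Maf had the largest log2 difference of the list, 0.77, at 0.726 and 0.552 FPKM in the 4xIOP controls and 1.51 and 1.36 FPKM after 4xIOP. Of 12 listed, 9 were tested, and Pitx3 had 0 reads in every library while Foxe3 and Sox1 had at most 4. Sox2 was higher in 18mo control than in 3mo control (log2 difference 1.96 ± 0.23 SE, limma adjusted p = 0.00412), and after 4xIOP its value was -0.06 (adjusted p = 0.969). Hsf4, the heat shock factor of lens, was at 0.12 ± 0.24 (adjusted p = 0.937) after 4xIOP.

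Other chaperones did not show a matching set of calls after 4xIOP. Of the 8 small heat shock genes besides the α-crystallins 4 were tested after 4xIOP and 0 were called, and of 14 inducible chaperones 13 were tested and 0 called, in limma and with voom alike. At an unadjusted p under 0.05 there were 3 small heat shock genes and 2 inducible chaperones. The highest of the small heat shock values was Hspb8 at 0.88 ± 0.25 SE (limma adjusted p = 0.0511). It was called higher in 3mo IOP, at 1.62 ± 0.24 (adjusted p = 0.0325), from 2.43 and 2.69 to 10.01 and 7.89 FPKM. Hspb1, the Hsp27 homolog, was at 0.67 ± 0.21 after 4xIOP (adjusted p = 0.0750) and higher in 18mo control than in 3mo control (1.06 ± 0.34, adjusted p = 0.0354). The heat-inducible Hspa1a and Hspa1b were lower in both 4xIOP libraries than in both controls but did not pass the test (-0.63, adjusted p = 0.119, and -0.58, adjusted p = 0.152). After 18mo IOP 10 of the 14 inducible chaperones and 4 of 6 small heat shock genes tested were higher without overlap, where 36.5% of all genes were. In limma 0 of them were called.

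Markers of other ocular cells gave these values beside the crystallins. After 4xIOP, Gfap, the intermediate filament of reactive Müller glia and astrocytes, was at 46.1 and 32.7 FPKM against 2.14 and 2.69 in controls (log2 difference 3.76 ± 0.24 SE, limma adjusted p = 6.03e-07), and 3 of 12 Müller glia genes were called higher and 0 lower. Without regard to the test, 8 of the 12 were higher and 3 lower without overlap, where 27.7% and 12.7% of all genes were. Among the 3 was Glul, the glutamine synthetase of Müller glia, at 249 and 292 FPKM against 579 and 592 in controls (-1.12 ± 0.41, limma adjusted p = 0.151). Gfap was also called after single elevation at 3 months (3.44 ± 0.40, adjusted p = 0.0271) and at 18 months (3.37 ± 0.40, adjusted p = 0.0443). Of the retinal pigment epithelium markers tested, all 5 were called lower after 4xIOP, with summed levels of 3.95 to 7.99 FPKM against 31.0 to 41.4, and 3 of the 5 had passed the filter only through the controls. Of the ciliary body and iris list, Gpnmb was called higher after 4xIOP (1.62 ± 0.24, limma adjusted p = 0.000594) and 0 lower, of 4 tested. Of these 4, 3 were higher and 1 lower without overlap, where 27.7% and 12.7% of all genes were. Rod genes were lower without overlap in 11 of 12 after 4xIOP, where 12.7% of all genes were, with 0 called in limma, 4 at an unadjusted p under 0.05 and 6 called with voom. Of the blood and ganglion cell genes 0 were called by either, and 0 had an unadjusted p under 0.05. Corneal genes were too low to test in the repeated experiment, summing to 0.350 and 3.98 FPKM after 4xIOP and 0.564 and 2.46 FPKM in controls. The part of these cell types in the crystallin values was not tested.

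The genes whose profile was most like the crystallins are given as a description only. Among 13050 genes tested in both tables, over 12 libraries, the mean profile of the 7 β- and γ-members was most like Erap1 (r = 0.89), Ms4a6b (0.89), S100a9 (0.89), Mcm3 (0.88) and Ptbp3 (0.88). Over the 8 single-experiment libraries alone these 5 were at 0.63, 0.72, 0.47, 0.62 and 0.52 in the same order. Cryaa was most like Dhx9 (0.94), Gpcpd1 (0.91), Trip4 (0.89), Zmat1 (0.88) and Col25a1 (0.88), and Mcm3 was also close to it (0.87). For the first 5 of these the single-experiment values were 0.86 to 0.89. Cryab was most like Pdia3 (0.98), Myl12a (0.97), Id2 (0.96), Vamp5 (0.96) and Cnn3 (0.96), at 0.95 to 0.98 over the single experiment. The Müller filament gene Vim came next for Cryab (0.96), and Crym after it (0.96).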

How the data were processed

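Whole-retina poly(A), strand-specific libraries were aligned by the authors with STAR to mm10 and counted with HOMER over exons, using uniquely mapped reads and 1 isoform per gene. The deposited values are FPKM, scaled to transcript length and mapped reads, in 2 separately made tables, with replicates not pooled. Reads were recovered from FPKM, transcript length and mapped reads, and 100% of the values checked came out whole within 0.02 reads plus rounding.

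Genes averaging 0.5 FPKM or more over a table were fitted on log2(FPKM + 0.5) with limma 3.58.1 (lmFit, eBayes with trend, R 4.3.3), over 8 libraries as 4 groups or over 4 libraries, with Benjamini-Hochberg adjustment over all genes of a table (13731 and 13718). Thresholds were an adjusted p of 0.05 and a log2 difference of 1, and the fit was tested on simulated data. SE are from limma, SD from libraries (n = 2). With 2 libraries against 2, an exact permutation test cannot pass a threshold. Of each list outside the members at most 4 genes were named from those called in any comparison, not always those with the largest differences. Vim, Glul, Bfsp1, Grifin, Lctl, Tdrd7, Lim2, Gja3, Dnase2b, Birc7, Pitx3, Foxe3, Sox1, Cryge and Crygf were also named after their values were seen. Maf, Hspa1a and Hspa1b were named outside this rule as well. Members and lists were chosen with earlier results of these data known. Replicate numbers did not pair libraries (correlation of same-number deviations -0.28, -0.53 and -0.29). Alternatives were other pseudocounts, filters, size factors, a length correction, a replicate block, fits on 2 groups, voom on the recovered reads and each library left out.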

Additional observations from a re-analysis of the deposited data

How the results depend on the processing

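After 4xIOP, 8 or 9 members were called under the other settings, where 3.52 to 7.05% of all genes were, and 7 to 9 with 1 library left out, where 4.97 to 5.82% were. Leaving out a library leaves 1 in its group, which is assumed to vary like the remaining pair, and since no member's groups overlapped, neither the direction nor these counts are a sign of stability. Without 4xIOP replicate 2, Cryaa and Crybb2 were not called, and without 4xIOP replicate 1, Cryaa was not. Over all 13 settings Cryaa was called in 11, and Cryab, Cryba1 and Crybb2 in 12 each. The median difference of the 9 members after 4xIOP was 4.43 with a pseudocount of 0.1, 2.36 with 1 and 5.24 with voom on recovered reads (chosen after seeing the data). It was 2.73 to 3.41 with 1 library left out. The size of the fold therefore depends on how values near 0 in the controls are handled.

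The age difference was less stable. Its median was -1.23 with a pseudocount of 0.1, -0.63 with 1, -0.99 with median-of-ratios size factors, -1.54 with voom and 0.034 with the transcript length trend removed, and -1.08 to -0.55 with 1 library left out (-0.60 without 3mo control replicate 2, which carried the corneal RNA). Members called were 0 in the reported fit and 4, all lower, in the fit on the 2 groups alone (21.9% of all genes called), 1, higher, with the length trend removed (16.4%), 1 (Cryaa, lower) with the replicate block (22.8%), and 0 to 1 with 1 library left out (8.56 to 34.4%). The causes of these changes were not tested.

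For 18mo IOP the median was 0.52 to 1.57 with 1 library left out, and for 18mo IOP against 3mo IOP it was -1.48 to 0.56, with 2 members called with the length trend removed (14.9% of all genes) and 0 to 1 with 1 library left out (5.26 to 22.0%). The age-by-elevation test called 2 genes without the filter on low values and 0 to 2 with 1 library left out. Replicate numbers gave no pairing. The replicate block changed no call after 3mo IOP, 18mo IOP or 4xIOP among the members, and genes called over the whole table went from 79 to 53, 17 to 0 and 843 to 864. The crossed pairing (added after seeing the data) called 312, 306 and 894 genes, and 1 member, Cryab, in 18mo IOP, where it called 2.23% of all genes. Genes called after 3mo IOP numbered 3 to 82 and after 18mo IOP 0 to 22 over the settings other than leaving out a library and the crossed pairing. The median of all genes after 4xIOP was 0.10 in the reported fit and -0.01 with voom. Control counts of 0 to 10 reads limit the 4xIOP folds of Cryba1, Cryba2, Cryba4, Crybb1 and Crygs.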
